A study of Mus musculus with 6 samples.

Results

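The mouse microRNAs mmu-miR-23a, mmu-miR-23b, mmu-miR-27a, mmu-miR-27b and mmu-miR-24, written below without the prefix mmu, are the main products of a pair of paralogous mouse clusters, and their abundance in the retina is described here in healthy mice and in mice developing an autoimmune inflammation of the eye. A probe was taken as a member if one of the miRNA names it carries was exactly the mouse name of one of these 5 miRNAs. This rule found 5 of the 597 mouse miRNA probes on the array, each with 4 spots per array, and it used no measured value. All 5 had a value on all 6 arrays.

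Experimental autoimmune uveoretinitis (EAU) is a disease in which T cells raised against a retinal antigen inflame the retina, used as a model of human uveitis. Retinal cells were collected from 3 naive samples and from 3 samples of mice developing EAU on day 14, all of strain B10.RⅢ and 8 weeks of age, and the samples of each group were harvested independently. Each miRCURY LNA array took 800 ng of total RNA of 1 sample, carrying the dye Hy3, beside a reference that carries Hy5 and blends the samples in equal amounts. The value used here is log2(Hy3/Hy5), so 0 means as much signal as in the blend after normalization, and all 6 arrays had the same dye orientation. How many mice a sample holds and how the disease was induced is not given in the sources used here, so p-values measure the spread between harvests. In whole retinal samples, fewer cells of a type and less miRNA per cell cannot be told apart.

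A microRNA is cut as a short duplex from a hairpin in a longer transcript, and the strand kept by the silencing complex pairs through its seed, bases 2 to 8, with messenger RNAs that it represses. The miR-23a cluster holds the hairpins of miR-23a, miR-27a and miR-24-2, and the miR-23b cluster those of miR-23b, miR-27b and miR-24-1. Both clusters are known for roles in endothelial cells and vessel growth, including neovascularization of the eye, and for restraint of T cell differentiation and cytokine production.

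In RefSeq (GRCm38.p6), all 6 hairpins of the clusters were found. The miR-23a cluster spans 404 bases of the plus strand at chr8:84208518-84208921 and overlaps no protein-coding gene. The miR-23b cluster spans 792 bases of the plus strand at chr13:63300484-63301275, inside the span of the protein-coding gene Aopep at chr13:62964893-63326096. The array files carry no positions of their own. Mature entries matched 4 of the 5 members, and the unmatched one is miR-23b-3p. The mature sequences are shown because they set which probes can tell the paralogues apart, with the seed in capitals.
mmu-miR-23a-3p: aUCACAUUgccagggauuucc
mmu-miR-27a-3p: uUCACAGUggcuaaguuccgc
mmu-miR-27b-3p: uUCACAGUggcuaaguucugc
mmu-miR-24-3p: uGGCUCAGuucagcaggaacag
These 4 sequences fall into 3 seeds, since miR-27a-3p and miR-27b-3p share theirs. They are identical at 20 of 21 bases and differ by C19U, counted from 1 at the 5′ end of miR-27a-3p. The seeds of miR-23a-3p and miR-27a-3p differ at 1 of 7 bases, U7G. The miR-24-3p sequence is the same from both hairpins, at chr8:84208875-84208896 and chr13:63301251-63301272, so the miR-24 probe measures the output of both clusters together.

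The hairpins of miR-23a, at chr8:84208518-84208592, and of miR-23b, at chr13:63300484-63300557, are shown for the run of 20 bases that they share, in capitals.
Mir23a: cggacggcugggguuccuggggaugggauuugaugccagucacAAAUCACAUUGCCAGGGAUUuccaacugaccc
Mir23b: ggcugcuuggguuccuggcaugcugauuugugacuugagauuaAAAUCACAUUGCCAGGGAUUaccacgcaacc
The shared run holds the seed and most of the mature miR-23a-3p, and it ends before that sequence does. Signal of one paralogue on the probe of the other was not tested, for the miR-23 pair or for the miR-27 pair.

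The retinal label was checked against markers. All 7 listed retinal miRNAs, those of photoreceptors (miR-183, miR-96, miR-182), neurons (miR-124, miR-9) and pigment epithelium (miR-204, miR-211), lay above the blank level on all 6 arrays. So did 197 of the 597 mouse probes, among them miR-223 and miR-150 of blood-lineage cells, so this check alone does not identify the tissue. The blank level is the median of blank and negative-control spots plus 3 median absolute deviations, and a probe was above it if at least 50% of its spots were. Between 249 and 315 mouse probes per array passed it in the sample channel. EAU replicate 2 was the brightest array, with a median sample signal of 94.8, and EAU replicate 3 the dimmest, at 56.2, where only 149 mouse probes passed the blank level in the reference channel. The naive arrays were scanned on 1 day and the EAU arrays on another, so an effect of the day and one of disease cannot be told apart.

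Raw brightness of the sample channel, before any correction, placed miR-23a, miR-23b, miR-27a and miR-24 above the blanks on all 6 arrays. In the reference channel miR-24 passed on 6 arrays, miR-23a and miR-23b on 5 each and miR-27a on 4. On EAU replicate 3 the reference means of miR-23a and miR-23b were 36.3 and 36.4, under the reference blank level of 39.0. The miR-27b probe was above them on none, in either channel. For miR-23a the mean signal of the 4 spots was 260, 246 and 252 in naive replicates 1 to 3 and 284, 554 and 142 in EAU replicates 1 to 3. The naive samples lay close together, while EAU replicate 2 was above and EAU replicate 3 below all of them. For miR-23b the signals were 322, 230 and 243 in the naive samples and 326, 686 and 146 in the EAU samples. The miR-24 probe gave 334, 372 and 270 in the naive samples and 236, 601 and 168 in the EAU samples. The same EAU arrays were highest and lowest for each of these probes, and they also had the highest and lowest median signal over all probes. Naive replicate 3 had almost the same median as EAU replicate 3, 56.8 against 56.2, and gave higher signals on these probes. The source of the low signals on EAU replicate 3 was not tested. For miR-27a the signals were 112, 103 and 93.6 against 80.6, 153 and 73.8. Those of miR-27b were 78.3, 73.8 and 64.9 against 61.4, 86.9 and 51.7, where the blank levels of the same arrays were 89.3, 92.1 and 65.7 against 72.7, 107 and 65.4. On the miR-27a probe all 6 signals thus exceeded the blanks by a small margin, and on the miR-27b probe all 6 fell short of them. Brightness of different probes is not compared here, because probes bind with different strength.

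**Figure D1:**
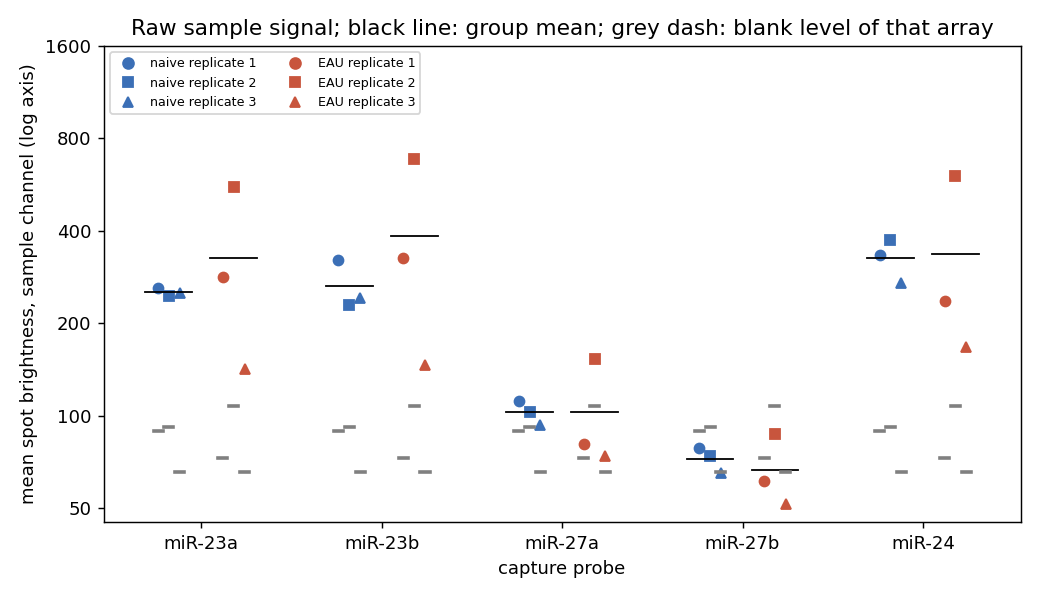
Raw mean brightness of each member's 4 spots in the sample channel (Hy3, log axis), 1 point per array, for naive (blue) and EAU (red) samples, with the group mean as a black line and the blank level of the array as a grey dash. EAU replicate 2 is the highest point of each probe (554 for miR-23a) and EAU replicate 3 the lowest, and miR-27b lies under the dash on all 6 arrays.

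After background correction and loess normalization, no member passed the test between EAU and naive samples. None of the 5 passed an adjusted p of 0.05 in limma, where 12.9% of the 595 tested mouse probes did, 4.2% higher and 8.74% lower in EAU. These shares include dim probes, since 224 mouse probes lay above the blanks on no array. With only the 288 probes above the blanks on at least 3 arrays, 62 passed, 25 higher and 37 lower in EAU. In that fit miR-23a, miR-23b, miR-27a and miR-24 did not pass, and miR-27b was not tested. None had an unadjusted p under 0.05 either, against 34.6% of all tested probes, and limma with trend and robust estimates called 0 members and gave 0 unadjusted p-values under 0.05. The naive and EAU values overlapped for all 5 members, while they did not overlap for 46.6% of tested probes. The median size of the log2 difference was 0.03 over the members and 0.07 over all tested probes.

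The mmu-miR-23a log2 ratios were 0.21, 0.31 and 0.33 in naive replicates 1 to 3 and 0.25, 0.37 and 0.32 in EAU replicates 1 to 3. The groups lay over the same range, with means of 0.28 ± 0.07 and 0.31 ± 0.06 (SD, n = 3 each). The difference, EAU minus naive, was 0.03 (SE 0.05, 95% confidence interval -0.09 to 0.15, adjusted p = 0.686 in limma). Its paralogue mmu-miR-23b gave 0.44, 0.37 and 0.49 in the naive samples and 0.35, 0.41 and 0.30 in the EAU samples. The highest and the second highest values were naive and the lowest were EAU, but EAU replicate 2 lay above naive replicate 2. The means were 0.43 ± 0.06 and 0.36 ± 0.06, and the difference of -0.08 (SE 0.04, interval -0.19 to 0.04) had an adjusted p of 0.266 in limma. Of the 5 members this was the smallest p, 0.140 before adjustment.

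The miR-27 pair stayed close to a log2 ratio of 0 on every array. For mmu-miR-27a the ratios were 0.04, 0.07 and 0.04 in the naive samples and 0.04, 0.12 and 0.04 in the EAU samples, and only EAU replicate 2 stood above the rest. The difference was 0.02 (SE 0.03, interval -0.05 to 0.09, adjusted p = 0.665 in limma). For mmu-miR-27b, which was under the blanks, the ratios were 0.06, 0.05 and 0.05 against 0.03, 0.06 and 0.04, and the difference was -0.01 (SE 0.02, interval -0.05 to 0.03, adjusted p = 0.719 in limma). An offset of 50 was added to both channels before the ratio was taken, which pulls the ratio of dim probes such as these towards 0. The narrow intervals of the miR-27 pair therefore limit changes in this compressed ratio, not in abundance. The offset also acts on the miR-23 and miR-24 ratios of all arrays. Their reference means were 36.3 to 96.2, where the median reference background was 29 to 30. On EAU replicate 3 the miR-23 reference signals were under their blank level. The SE of the miR-23a difference was 0.09 with an offset of 16 and 0.21 in the scanner software's processed signals, without this offset. For miR-24 it was 0.22 and 0.28. The miR-23 and miR-24 intervals thus also describe a compressed ratio.

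The mmu-miR-24 log2 ratios were 0.15, 0.20 and 0.19 in the naive samples and 0.13, -0.35 and 0.15 in the EAU samples. A single array, EAU replicate 2, lay apart from the other 5, which ranged from 0.13 to 0.20. The means were 0.18 ± 0.03 and -0.02 ± 0.29, and the difference was -0.20 (SE 0.14, interval -0.56 to 0.16, adjusted p = 0.353 in limma). That low value rests on 1 spot, since the scanner software had marked the other 3 of this array as outliers, and the value of naive replicate 2 also rests on 1 spot. Leaving out EAU replicate 2 moved the difference to -0.04 (adjusted p = 0.314 in limma). Keeping the outlier spots gave -0.11, and requiring at least 2 spots per array, a setting chosen after seeing the data, gave -0.03 (adjusted p = 0.523 in limma).

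**Figure D2:**
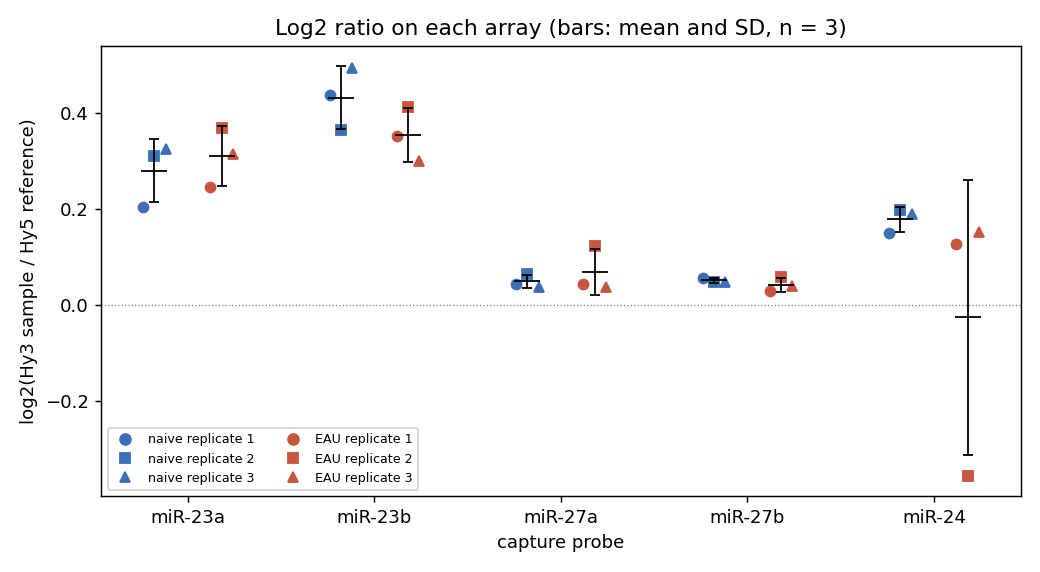
Normalized log2(Hy3/Hy5) of the 5 members, 1 point per array, for the 3 naive (blue) and 3 EAU (red) samples, with the group mean as a black line. The groups overlap for each member, and the EAU replicate 2 value of miR-24, -0.35, lies away from all others of that probe.

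The single spots of the members followed their place on the array. The 4 spots of a probe lie in 4 blocks, numbered here by their order in the scanner file. The log2 ratio was highest in block 1 in 25 of 30 combinations of a member and an array, and the reference signal was lowest there in 29 of 30. Averaged over members and arrays, the ratio was 0.36 in block 1 and 0.07 in block 4. The drop was steepest for miR-24, from 0.47 to -0.03, and smallest for miR-27b, from 0.07 to 0.03. On EAU replicate 2 the miR-24 spots read 0.52, -0.12, -0.29 and -0.35 in blocks 1 to 4, and the spot in block 4 was the one not marked as an outlier. On naive replicate 2 the spot that remained was that of block 2, at 0.20. The members were not alone in this: over the 197 mouse probes above the blanks on all arrays, the median ratio of an array was 0.15 to 0.43 in block 1 and -0.16 to 0.01 in block 4. With loess fitted within each block, chosen after seeing the data, miR-24 read -0.21 on EAU replicate 2 and its difference was -0.13, and no member passed the threshold.

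**Figure D3:**
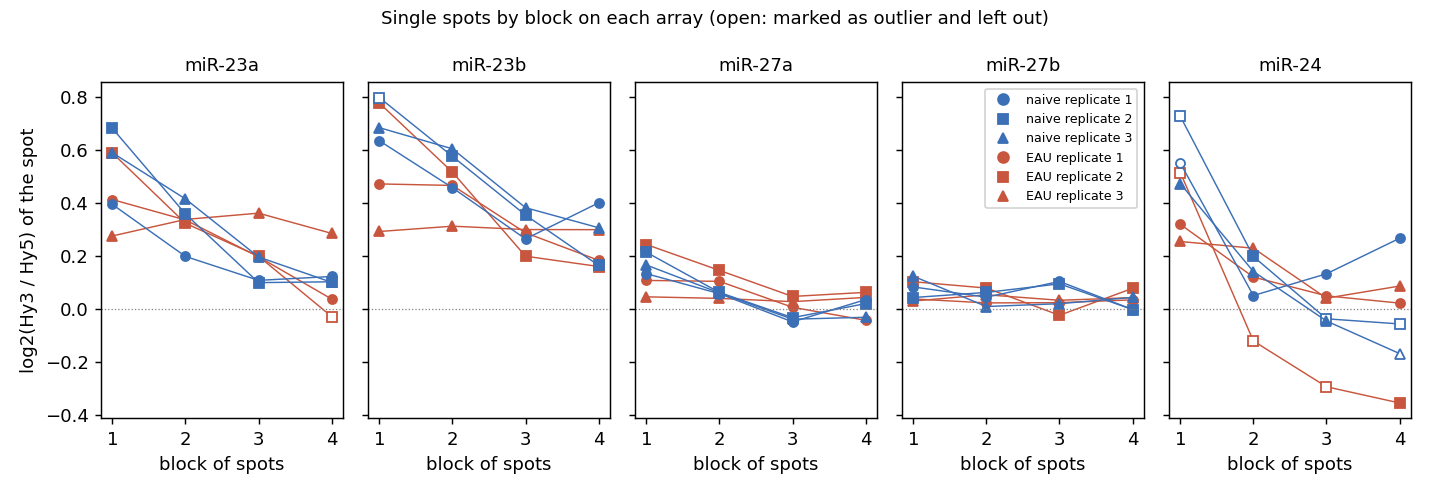
Log2(Hy3/Hy5) of each single spot against the block of spots it lies in, with the 4 spots of an array joined by a line, for naive (blue) and EAU (red) arrays. Open symbols are spots marked as outliers and left out, and each line of miR-24 is highest in block 1, with 1 filled point, -0.35 in block 4, on EAU replicate 2.

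Values that use only the sample channel, without the ratio to the blend, were compared next. No member passed an adjusted p of 0.05 in limma, where 10.3% of tested probes did, 5.21% higher and 5.04% lower in EAU. The differences were -0.01 for miR-23a, 0.11 for miR-23b, -0.16 for miR-27a, -0.18 for miR-27b and -0.09 for miR-24 on the log2 scale, so the signs of miR-23a, miR-23b and miR-27a were opposite to those of the ratio. The lowest p was that of miR-27b, 0.0402 before adjustment and 0.180 after it in limma (SE 0.07, interval -0.34 to -0.01), and 24.7% of tested probes had an unadjusted p under 0.05. Its naive values all lay above its EAU values, and all 6 signals were under the blanks. Groups did not overlap, in either direction, for 31.6% of tested probes.

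The authors' deposited table of linear ratios was set beside these values. For miR-23a it lists 1.41, 1.88 and 2.28 in the naive samples and 1.43, 1.20 and 1.91 in the EAU samples. For miR-23b it lists 1.68, 2.14 and 2.20 against 1.82, 2.03 and 1.88, and for miR-24 1.18, 1.29 and 1.19 against 1.26, 1.03 and 1.60. The groups overlapped for these 3. In the deposited table the miR-27a ratios were 1.11, 1.16 and 1.14 in the naive samples and 1.24, 1.36 and 1.70 in the EAU samples, all higher in EAU. Those of miR-27b in that table were 1.08, 1.13 and 0.993 against 0.861, 0.969 and 0.834, all lower in EAU. On the log2 scale the miR-27a difference was 0.33 (adjusted p = 0.244 in limma) and the miR-27b difference -0.27 (adjusted p = 0.318 in limma). No member passed the threshold or had an unadjusted p under 0.05 in limma on this table, where 13.9% of its 588 mouse probes passed (7.14% higher and 6.8% lower in EAU), 29.4% had such an unadjusted p and 32.8% did not overlap between groups.

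**Figure D4:**
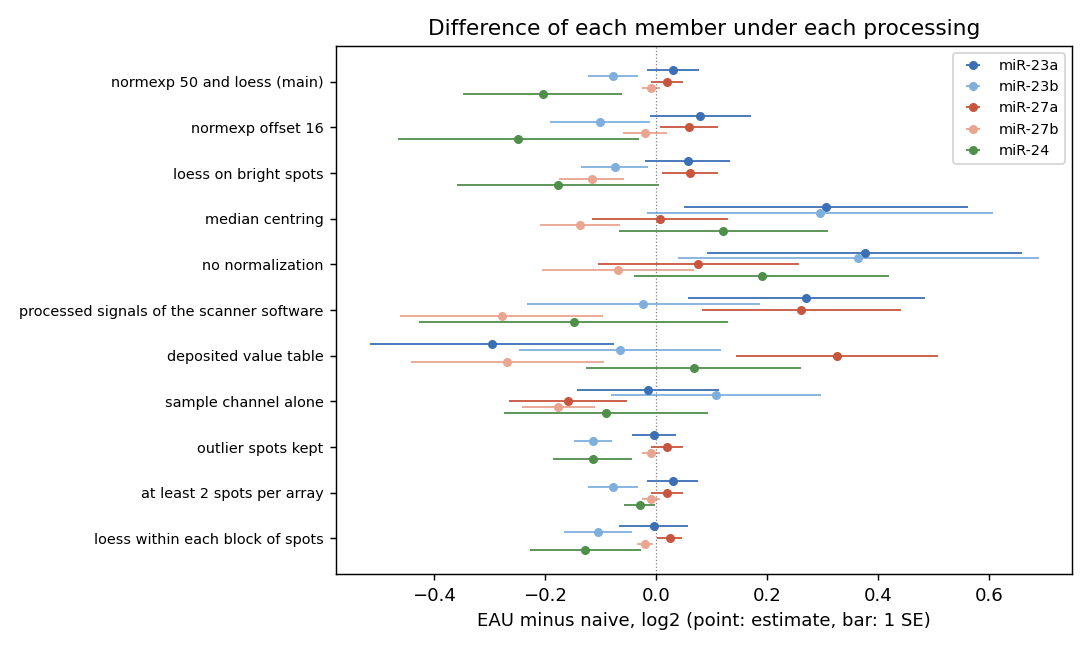
EAU minus naive log2 difference of each member under the processing used here (first row) and 10 other ways of processing, as points with bars of 1 standard error. The miR-27b points (light red) are below 0 in every row, while those of miR-23a, miR-23b, miR-27a and miR-24 lie on both sides, miR-27a only through the sample channel alone (-0.16).

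The paralogues were compared by the difference in log2 ratio between the a and the b probe on each array, and that difference was compared between groups. It says whether the pair moved apart with disease, and its size within 1 group has no meaning because the probes differ. For miR-23a minus miR-23b the values were -0.23, -0.05 and -0.17 in the naive samples and -0.11, -0.04 and 0.01 in the EAU samples. They overlapped, with a change of 0.11 (SE 0.06) from -0.15 ± 0.09 to -0.05 ± 0.06 (SD, n = 3 each). The two-sided exact permutation test gave p = 0.2, and 0.3 after Benjamini-Hochberg adjustment over 3 contrasts. For miR-27a minus miR-27b the change was 0.03 (SE 0.02, exact p = 0.3, adjusted 0.3), and for the mean of the a pair minus the mean of the b pair it was 0.07 (SE 0.04, exact p = 0.2, adjusted 0.3). With 3 arrays against 3 the 20 possible splits allow no p under 0.1, so this test could not reach 0.05 for any contrast.

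The miR-23 contrast did not keep its sign across processings. It was -0.23 in the deposited table and -0.12 in the sample channel alone. The miR-27 contrast was positive in each of its 16 alternatives. It reached 0.59 (SE 0.18) in the deposited table and 0.54 (SE 0.18) in the processed signals of the scanner software, each with the smallest exact p that the test can give, 0.1 (adjusted 0.3 and 0.15). The sample channel alone gave 0.02 (SE 0.09, exact p = 1). The contrast of the pair means was 0.42 (SE 0.14) in the processed signals and 0.07 (SE 0.03) with loess within blocks, where the groups did not overlap and the exact p was 0.1 in each (adjusted 0.15 and 0.3). It was 0.18 (SE 0.21, exact p = 0.7) in the deposited table and -0.05 (SE 0.07, exact p = 0.6) in the sample channel alone. One side of this contrast, miR-27b, did not reach the blank level on any array, and whether the remaining signal of that probe is miR-27b was not tested.

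**Figure D5:**
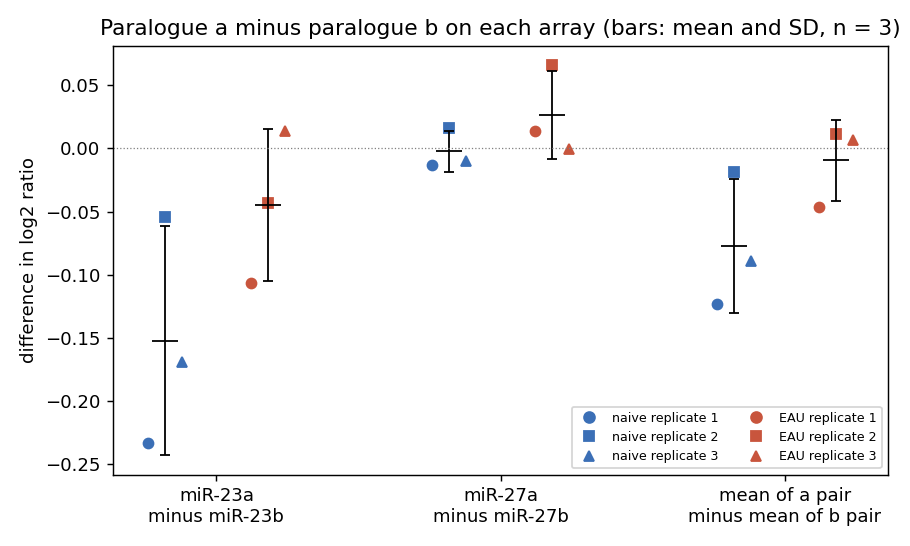
Log2 ratio of the a probe minus that of the b probe on each array, for miR-23, miR-27 and the mean of both pairs, in naive (blue) and EAU (red) samples, with the group mean as a black line. The miR-23 values overlap between the groups (-0.23 to -0.05 against -0.11 to 0.01), and the miR-27 values all lie near 0 apart from EAU replicate 2, at 0.07.

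Other strands of the same hairpins, marked with a star in the array's older names, had a mouse probe for 4 of 6 hairpins. The miR-24-1* strand was higher in EAU. Its log2 ratios were 0.29, 0.26 and 0.29 in the naive samples and 0.44, 0.42 and 0.39 in the EAU samples, with no overlap. The difference was 0.14 (SE 0.02, interval 0.09 to 0.19, adjusted p = 0.0177 in limma), and the probe lay above the blanks on all 6 arrays. This strand comes only from the miR-23b cluster, whereas the main strand miR-24 comes from both. The call held in 6 of 19 alternatives and was lost in the other 13, among them the replicate block (adjusted p = 0.0940) and leaving out naive replicate 1 (0.0854), EAU replicate 3 (0.0505) or naive replicate 2 (0.0612), all in limma. Its raw signals were 1354, 973 and 887 in the naive samples and 1535, 2938 and 405 in the EAU samples. They overlapped, and the sample channel alone gave a difference of 0.04 (interval -0.73 to 0.82). In the authors' deposited table its ratio ran the other way, at 176, 177 and 126 in the naive samples and 82.4, 83.9 and 65.6 in the EAU samples. It is one of 36 of the 1972 rows of that table with a ratio above 32 on every array, which were left out of the fit on the table.

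The corresponding strand of miR-24-2, miR-24-2*, stayed below the blank level on all 6 arrays, with a difference of 0.03 (adjusted p = 0.291 in limma). Taking the star names for the 5p arms, these strands are shown for how they differ. Capitals mark bases that differ position by position from the 5′ end, without gaps.
mmu-miR-24-1-5p: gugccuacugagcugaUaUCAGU
mmu-miR-24-2-5p: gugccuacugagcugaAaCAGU
Compared in this way they are identical at 17 of 22 bases, among them the first 16. The differences, U17A, U19C, C20A, A21G and G22U, counted from 1 at the 5′ end of miR-24-1-5p, lie at the 3′ end. Both strands end in the same bases CAGU. Since they are 23 and 22 bases long, that ending falls out of register and is in capitals, so the comparison without gaps overstates how much they differ. The 2 remaining strands were also under the blanks on all 6 arrays and did not pass the test, miR-27a* at 0.03 (adjusted p = 0.421 in limma) and miR-27b* at 0.04 (adjusted p = 0.476 in limma).

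Across the 6 arrays the members did not vary as one group. As a description, the Pearson correlation of the log2 ratios was 0.55 for miR-27a with miR-27b and 0.01 for miR-23a with miR-23b. Within a cluster it was 0.62 for miR-23a with miR-27a and 0.58 for miR-23b with miR-27b. The correlation of miR-27a with miR-24 was -0.93, and EAU replicate 2 was the highest array of the one and the lowest of the other. All these points share arrays and normalization. Among 587 other probes, those most like the mean of the members were miR-742 (r = 0.98), miR-340-3p (0.98), miR-672 (0.96), miR-34b-3p (0.95) and miR-292-3p (0.93). Most like miR-27b were miR-200b (0.97), miR-1-2-as (0.94) and miR-208a (0.94), and most like miR-24 were miR-377 (0.95), miR-489 (0.94) and miR-672 (0.94). None of these 10 probes passed the test between the groups. The miR-24 values differed mainly on EAU replicate 2 (-0.35, from 1 spot), with the other arrays at 0.13 to 0.20. Those of miR-27b, under the blanks, ran only from 0.03 to 0.06. The probes were picked as the highest of 587 correlations over 6 arrays, and whether such values exceed chance was not tested.

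Other vascular and immune miRNAs give the setting in the same fit, where 4.2% of all tested probes passed as higher and 8.74% as lower in EAU. Of 6 vascular miRNAs, 0 rose, 2 fell and 4 did not pass, with a median difference of -0.06. Those that fell were miR-143, by 0.27 (adjusted p = 0.0291 in limma), and miR-145, by 0.45 (adjusted p = 0.00702 in limma), both markers of smooth muscle and pericytes. The call of miR-143 was lost in 14 of 20 alternatives, among them the removal of any array other than EAU replicate 1, and that of miR-145 in 2. The endothelial miR-126-3p had a difference of -0.06 (adjusted p = 0.612 in limma), and miR-126-5p did not reach the blank level on any array. Of 8 immune miRNAs, 2 rose, 0 fell and 6 did not pass, with a median of 0.15. Those that rose were miR-142-3p, a marker of blood-lineage cells, by 0.56 (adjusted p = 0.0166 in limma), and miR-21, which inflammation induces in many tissues, by 1.16 (adjusted p = 0.0266 in limma). The call of miR-21 was lost in 6 of 20 alternatives in limma: median centring (adjusted p = 0.0532), the replicate block (0.0954), and leaving out naive replicate 1 (0.0934), naive replicate 2 (0.0938), naive replicate 3 (0.0600) or EAU replicate 3 (0.0736). That of miR-142-3p was lost in 3, the replicate block (adjusted p = 0.0654 in limma) and leaving out naive replicate 2 (0.0612) or EAU replicate 3 (0.0665). The differences were positive in all 20 and reached 3.31 for miR-21 and 1.95 for miR-142-3p in the processed signals. Both miRNAs were under the blanks in all naive samples and above them in all EAU samples. The 5 members, with a median difference of -0.01, stood between these lists, as did all tested probes with a median of -0.01.

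Of the other markers, 4 of the 7 retinal miRNAs fell and none rose, with a median of -0.73, where 8.74% of all tested probes passed as lower. The falls were those of miR-183 (-1.38, adjusted p = 0.0483 in limma), miR-9 (-0.35, 0.0211), miR-204 (-0.73, 0.0291) and miR-211 (-0.50, 0.00702). The EAU mean of miR-183 rests on 2 arrays. The other photoreceptor miRNAs, miR-96 and miR-182, did not pass (adjusted p = 0.0593 and 0.104 in limma), nor did miR-124. Of the 3 red cell miRNAs, miR-486 fell by 0.23 (adjusted p = 0.0463 in limma), and miR-451 (0.14) and miR-144 (0.01) did not pass. Their signals were near the blanks: miR-486 was above them on 2 naive and 3 EAU arrays, miR-451 on 1 and 3, and miR-144 on none. The calls of miR-486 and of the retinal miRNAs were not followed through the alternatives. Of the 4 blood-lineage miRNAs, 1 rose, miR-142-3p. The part of these shifts in the members' values was not tested.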

How the data were processed

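Retinal RNA of 3 naive and 3 EAU samples was measured on 2-colour arrays. The authors deposited the intensity of 8720 spots per array, in both channels and with the local background. Per the file headers, the program was Agilent Feature Extraction 9.1.3.1. A deposited table gives 1 linear ratio for each probe, and how it was normalized or centred is not given in the sources used here. Its values follow Hy3 over Hy5 of the processed signals (median correlation 0.953 across arrays, over 196 probes), and its column medians were 0.769 to 0.886.

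The mean spot intensity was corrected by normexp (offset 50) and normalized within each array by loess, with limma 3.58.1 in R 4.3.3. Control spots had weight 0 in the loess fit. Outlier spots were dropped and spots averaged as log2 values. All 597 mouse probes were well above background by the scanner's flag on at least 3 arrays, and 595 had enough values to be tested. EAU was compared with naive by lmFit and eBayes, two-sided, with Benjamini-Hochberg adjustment over all of them and a threshold of 0.05. A test on simulated data checked the script. The paralogue contrasts used an exact permutation test over arrays. The number of arrays limits the precision. No dyes were swapped, so a dye effect of a probe is in every ratio and was not estimated. It need not be equal on all arrays. The reference channel varied, with 149 mouse probes above its blank level on EAU replicate 3 and 314 on naive replicate 2.

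Named are the members, the star strands of their hairpins, the 5 probes most correlated with the mean of the members, the 3 most correlated with miR-27b and with miR-24, and the members of the vascular and immune lists past the threshold. The remaining list miRNAs named were chosen after their values were seen. The members and the lists were chosen with earlier results of these data known. Alternatives covered background correction, normalization, the channel, outlier spots, the summary over spots, a filter on blanks, limma's trend and robust options, the replicate number as a block and leaving out each array. A minimum of 2 spots and loess within blocks were added after seeing the data. The replicate number is not stated to pair samples, so the numbers were not taken as pairs. Same-numbered samples had correlated deviations of 0.19, -0.15 and 0.29. The deviations were centred within groups of 3, so these correlations cannot decide whether samples were paired.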

Additional observations from a re-analysis of the deposited data

How the results depend on the processing

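No member passed the threshold in any of the alternatives. The smallest adjusted p was 0.0771 in limma, for miR-23b with outlier spots kept. The miR-23a difference reversed in the deposited table (-0.30), the sample channel alone (-0.015), with outlier spots kept (-0.0034) and with loess within blocks (-0.0036), and ranged from -0.0075 to 0.062 when 1 array was left out. The miR-23b difference reversed with median centring (0.30), no normalization (0.36) and the sample channel alone (0.11), and ranged from -0.11 to -0.05 with 1 array left out. The miR-27a difference reversed in the sample channel alone (-0.16) and ranged from -0.0083 to 0.035 with 1 array left out, negative only without EAU replicate 2. The miR-24 difference reversed with median centring (0.12), no normalization (0.19) and the deposited table (0.068), and ranged from -0.29 to -0.04 with 1 array left out. The miR-27b difference was negative in all 19 alternatives in which it was tested, from -0.28 to -0.0011. The miR-23 contrast reversed in the deposited table (-0.23) and the sample channel alone (-0.12), and the contrast of the pair means in the sample channel alone (-0.053). The miR-27a* and miR-27b* differences reversed with loess on bright spots (-0.0085 and -0.0043). The cause of these reversals was not tested.

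For miR-24-1* the difference stayed positive in the 19 alternatives in which it was fitted. The deposited table, where its ratio was lower in EAU, is not among them, because its row was left out of that fit. Its call was lost with median centring (0.66), no normalization (0.73), loess on bright spots (0.087), an offset of 16 (0.27), processed signals (0.41), the sample channel alone (0.042) and the median over spots (0.17). At an unchanged 0.14 it was lost with the filter on blanks, trend and robust options, and the replicate block, and it ranged from 0.13 to 0.15 with 1 array left out. The count of probes past the threshold, 77, was 2 with median centring (1 higher, 1 lower), 25 with no normalization (21 higher, 4 lower), 33 with loess on bright spots (18 higher, 15 lower), 47 with the median over spots, 2 with the replicate block and 32 with loess within blocks (18 higher, 14 lower). Processed signals gave 72 (42 higher), the authors' ratios 82 (42 higher) and the sample channel 61 (31 higher). It ranged from 8 to 79 with 1 array left out, and was 8 without EAU replicate 3, 9 without naive replicate 1, 15 without naive replicate 2 and 36 without naive replicate 3. The replicate block left every member at its value with adjusted p from 0.385 to 0.784 in limma, and 3 of 6 arrays correlated best with the array of their own number. The median difference of all probes was -0.01 with loess, -0.03 with median centring, 0.04 with no normalization and -0.08 with loess on bright spots.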

Other observations

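The array also carries probes named for the miR-23 hairpins of other species. The probe named for human miR-23b lay above the blanks on all 6 arrays, with raw signals of 483, 435 and 357 in the naive samples and 397, 957 and 217 in the EAU samples. Its log2 ratios were 0.33, 0.28 and 0.14 in the naive samples and 0.31, 0.40 and 0.28 in the EAU samples. They overlapped, and the difference of 0.08 had an exact two-sided permutation p of 0.5. Its sign was opposite to that of the mouse miR-23b probe, -0.08. Probes for the other strand, human miR-23b* and human or rat miR-23a*, were under the blanks on all 6 arrays, with differences of -0.02 (exact p = 0.4) and 0.06 (exact p = 0.2). The smallest p this test allows is 0.1, over 3 probes, and these probes are outside the fit of the mouse probes.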
